A study of Mus musculus with 18 samples.

Results

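The troponin and tropomyosin genes of skeletal muscle were followed across RNA-seq libraries of mouse gastrocnemius and soleus, 2 muscles of the calf with different fibre makeup. The 10 genes were taken by name (Tnnt1, Tnnt2, Tnnt3, Tnni1, Tnni2, Tnnc1, Tnnc2, Tpm1, Tpm2 and Tpm3), out of 41388 genes listed in the deposited tables, and all 10 were found and passed the filter on low counts. All mice carried the floxed allele of Site-1 Protease (gene Mbtps1, a Golgi protease that cleaves membrane-bound precursors), and all were 12 weeks of age, chow-fed and without food for 4 h when the muscles were taken. Controls had the floxed allele alone. Knockout mice also carried HSACre, a Cre recombinase whose human skeletal actin promoter is active in muscle fibres, so other cells of the muscle keep the gene, and no group carried Cre without the floxed allele. The sample titles gave 5 control and 4 knockout libraries in each muscle, against 4 per group in the series text, and the titles were followed. No label says that the libraries came from separate mice, or which gastrocnemius and soleus libraries share a mouse, and the p-values then measure only the spread between these samples.

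Troponin and tropomyosin form the calcium switch of the thin filament. Tropomyosin lies along the actin filament and covers the sites that myosin binds, troponin T anchors the complex to tropomyosin, troponin I holds the switch off, and troponin C binds calcium and releases it. Slow fibres, fast fibres and the heart use different genes for most of these parts: Tnnt1, Tnni1 and Tnnc1 are the slow forms (Tnnc1 is also the heart's troponin C), Tnnt3, Tnni2 and Tnnc2 the fast forms, and Tnnt2 the heart's troponin T, which skeletal muscle also makes while it is developing or regenerating. Tpm3 gives the slow form of alpha tropomyosin, Tpm1 the fast form, and Tpm2 the beta form found in both fibre types.

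The libraries held 39.0 to 78.2 M counts. Levels are CPM, the counts of a gene per M counts of the library, on library sizes scaled by edgeR's TMM method, and fold changes are log2 values from edgeR with their standard errors (SE). A gene is said to have risen, fallen or differed where edgeR's quasi-likelihood test gave a Benjamini-Hochberg adjusted p under 0.05 over all genes tested. Mbtps1 was at 33.1, 34.9, 29.7, 30.1 and 29.6 CPM in the gastrocnemius controls and 35.9, 34.7, 42.8 and 37.0 CPM in the knockouts, and at 31.7, 33.2, 30.5, 31.9 and 34.4 CPM in the soleus controls and 36.3, 31.0, 36.3 and 34.5 CPM in the knockouts. The knockouts were not lower (log2 change 0.25 ± 0.08 SE, adjusted p = 0.0945 in gastrocnemius, and 0.10 ± 0.07 SE, adjusted p = 0.754 in soleus). A whole-gene count does not show whether the floxed part was cut out, and the muscle also holds cells without Cre. The muscles matched their labels by myosin heavy chain. Myh4, the fastest type, was at 76705 to 91598 CPM in the gastrocnemius controls. Myh7, the slow type, was at 8129 to 11479.9 CPM in the soleus controls against 345 to 530.0 CPM in the gastrocnemius controls. The soleus controls also held the fast types Myh2, at 13642 to 16234 CPM and above Myh7, and Myh1, at 4568 to 7760 CPM. Myh4 varied widely in the soleus, with 1507, 1642, 127, 2019.5 and 4439.6 CPM in the controls and 4412, 3962, 5617 and 223 CPM in the knockouts, lowest in control library 37 and knockout library 42. These are whole-muscle libraries, in which fewer fibres of a type and less RNA per fibre cannot be told apart.

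Several of the genes lie in troponin I and troponin T pairs on the genome. On build GRCm38, Tnni2 (ENSMUSG00000031097) was on chromosome 7 from 142441808 to 142444410 on the plus strand, and Tnnt3 (ENSMUSG00000061723) on chromosome 7 from 142498836 to 142516009 on the plus strand, 54.4 kb away. Tnni1 (ENSMUSG00000026418) was on chromosome 1 from 135779434 to 135810989 on the plus strand, and Tnnt2 (ENSMUSG00000026414) followed it 25.4 kb on, on chromosome 1 from 135836354 to 135852260 on the plus strand. Tnnt1 (ENSMUSG00000064179) was on chromosome 7 from 4504570 to 4516382 on the minus strand, beside Tnni3, the heart's troponin I, at a gap of 1.9 kb. Tnnc1 (ENSMUSG00000091898) was on chromosome 14 from 31208312 to 31211729 on the plus strand, and Tnnc2 (ENSMUSG00000017300) on chromosome 2 from 164777161 to 164779967 on the minus strand. Tpm1 (ENSMUSG00000032366) was on chromosome 9 from 67022590 to 67049406 on the minus strand, Tpm2 (ENSMUSG00000028464) on chromosome 4 from 43514711 to 43523765 on the minus strand, and Tpm3 (ENSMUSG00000027940) on chromosome 3 from 90072649 to 90100902 on the plus strand. Each count covers all annotated exons of a gene, so fast, slow, fetal and non-muscle transcripts of one gene are added together.

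The Tnnc2 count could not be read as the level of fast troponin C. Of its 800 exon bases, 592 are shared with Ube2c, a ubiquitin-conjugating enzyme gene on the opposite strand, and it averaged 302.2 counts a library against 408507 for Tnnt3. Its values are given below with that limit, and no share of slow troponin C was formed. Tpm3 has a related copy, Tpm3-rs7, listed at 1.67 ± 0.390 CPM (SD, n = 5) in the gastrocnemius controls and 20.4 ± 0.576 CPM (SD, n = 5) in the soleus controls, and the treatment of reads common to both is unknown.

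The slow genes had the largest differences between the muscles and Tnnt2 the largest between the genotypes, and the bases before their starts are printed to show the DNA in front of them. RefSeq promoter entries on GRCm38.p6 matched 8 of the 10 genes, with 11 windows of 250 bases before a start; Tnnt3 and Tnni2 had no entry. The windows below are those of Tnnt1 (chr7:4515976-4516225 on the minus strand), the first start of Tnni1 (chr1:135799171-135799420 on the plus strand), Tnnc1 (chr14:31208062-31208311 on the plus strand), the first start of Tpm3 (chr3:90072401-90072650 on the plus strand) and the first start of Tnnt2 (chr1:135836084-135836333 on the plus strand). They overlap exons of other annotated transcripts by at most 29 bases. Each runs 5′ to 3′ on the gene's strand and ends at the base before the start, and capitals mark E-box, MCAT and TATA letters.
Tnnt1: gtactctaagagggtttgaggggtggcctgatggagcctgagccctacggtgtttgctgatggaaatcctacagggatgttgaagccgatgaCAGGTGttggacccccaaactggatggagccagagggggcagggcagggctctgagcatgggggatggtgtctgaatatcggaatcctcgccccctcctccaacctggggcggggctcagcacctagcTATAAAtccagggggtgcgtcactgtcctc
Tnni1: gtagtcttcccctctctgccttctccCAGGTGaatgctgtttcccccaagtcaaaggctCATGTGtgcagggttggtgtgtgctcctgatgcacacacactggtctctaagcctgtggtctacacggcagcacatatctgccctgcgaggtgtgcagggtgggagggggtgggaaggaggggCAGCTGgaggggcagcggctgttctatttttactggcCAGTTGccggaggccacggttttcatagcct
Tnnc1: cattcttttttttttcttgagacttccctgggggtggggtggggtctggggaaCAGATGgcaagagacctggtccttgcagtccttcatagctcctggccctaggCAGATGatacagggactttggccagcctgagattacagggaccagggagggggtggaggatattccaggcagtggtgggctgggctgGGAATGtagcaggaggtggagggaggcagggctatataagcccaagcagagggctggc
Tpm3: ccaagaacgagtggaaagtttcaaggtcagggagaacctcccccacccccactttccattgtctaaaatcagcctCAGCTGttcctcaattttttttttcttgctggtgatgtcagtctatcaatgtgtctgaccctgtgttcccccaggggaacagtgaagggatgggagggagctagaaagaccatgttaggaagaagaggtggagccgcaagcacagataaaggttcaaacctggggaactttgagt
Tnnt2: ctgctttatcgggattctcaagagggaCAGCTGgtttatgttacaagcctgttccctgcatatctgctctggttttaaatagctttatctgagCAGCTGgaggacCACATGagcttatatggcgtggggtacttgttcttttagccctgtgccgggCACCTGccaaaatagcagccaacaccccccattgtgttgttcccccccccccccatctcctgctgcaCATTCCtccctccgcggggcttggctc

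Both strands of all 11 windows were searched for 5 motifs. The E-box (CANNTG), the letters that MyoD-family factors bind, was in 11 of 11 windows, and 66.2% of all 32851 promoter windows of this length hold it. The 11 windows belong to 8 genes and are not independent. Those of Tnni1 overlap each other, and the E-boxes of the second are also in the first. The second Tnnt2 window lay wholly within annotated exons. Annotated exons also covered 193 of the 250 bases for Tpm1, 107 for Tnnc2, 106 for Tpm2 and 95 for the second Tnni1 window. Tnni1 and Tnnt2 had 4 E-boxes each before their first start. The MCAT motif (CATTCC), bound by TEAD factors, was in 3 windows, those of Tnnt2 (27 bases before the first start), Tnnc1 (58 bases) and Tpm1 (56 bases), against 12.6% of all windows. The TATA letters (TATAAA) stood 30 bases before the start of Tnnt1 and in no other of these windows, against 12.4% of all. The MEF2 motif (2.92% of all windows) and the MEF3 motif (TCAGGTT, 3.49%) were in 0 of the 11. None of these motifs overlaps another in the printed windows, and a match is a description of the letters only.

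The first comparison asked how the muscles differ in controls. All 10 genes differed between soleus and gastrocnemius in a comparison where 49.3% of 18494 genes tested did. Of the 10, 6 were higher in soleus (27.4% of all genes) and 4 lower (21.9%). Their values did not overlap between the muscles for any of the 10, against 36.7% of all genes. The slow genes Tnnt1, Tnni1, Tnnc1 and Tpm3 were 17.5 to 20.3 times higher in soleus. The fast genes Tnnt3, Tnni2 and Tpm1 were 2.58 to 4.29 times lower in soleus, and Tpm2 was 1.95 times higher there. The median log2 fold change was 1.211 over the 10 genes and 0.084 over all genes.

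Tnnt1, slow troponin T, was at 110.1, 66.0, 85.2, 118 and 102 CPM in the gastrocnemius controls and 1674, 1494, 1851, 1843 and 1724 CPM in the soleus controls. The lowest soleus library was more than 12 times above the highest gastrocnemius library (log2 change 4.16 ± 0.23 SE, adjusted p = 2.34e-10). Tnni1, slow troponin I, was at 27.6, 19.7, 24.8, 37.6 and 36.3 CPM in gastrocnemius and 529, 507, 589, 605 and 611 CPM in soleus (log2 change 4.28 ± 0.29 SE, adjusted p = 9.32e-09). Its spread among gastrocnemius controls was wide, with library 3 lowest and libraries 5 and 8 highest. Tnnc1, slow troponin C, was at 47.2, 36.3, 40.1, 59.7 and 58.3 CPM in gastrocnemius, again with library 3 lowest and libraries 5 and 8 highest, and at 939, 919.6, 1083, 1009.9 and 957 CPM in soleus (log2 change 4.34 ± 0.28 SE, adjusted p = 3.40e-09). Tpm3, slow tropomyosin, was at 131, 106, 106, 140.4 and 148 CPM in gastrocnemius and 2164, 2030.4, 2264, 2255 and 2322 CPM in soleus (log2 change 4.13 ± 0.19 SE, adjusted p = 6.10e-12). The 5 soleus controls lay within a narrow band for Tpm3, from 2030.4 to 2322 CPM.

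The fast genes moved the other way by smaller folds. Tnnt3, fast troponin T, was at 13278, 11542, 14242, 14668 and 13106 CPM in gastrocnemius and 5031, 4793, 4729.8, 4481 and 4201 CPM in soleus, 2.88 times lower (log2 change -1.52 ± 0.09 SE, adjusted p = 3.98e-12). Tnni2, fast troponin I, was at 6428, 5723, 7048, 7317 and 6744 CPM in gastrocnemius and 2818, 2821, 2654, 2284 and 2304 CPM in soleus, 2.58 times lower (log2 change -1.37 ± 0.11 SE, adjusted p = 9.31e-10). Per kilobase, the fast forms of troponin T and I still exceeded the slow ones in the soleus. Tpm1 showed the largest fall of these 3, with 15766, 13065, 15514, 15992 and 13718 CPM in gastrocnemius and 3934, 3328, 3117, 3509 and 3373 CPM in soleus, 4.29 times lower (log2 change -2.10 ± 0.10 SE, adjusted p = 1.06e-13). Tpm2, beta tropomyosin, rose from 4056, 3389.6, 4269.7, 4352 and 3827 CPM in gastrocnemius to 8050.0, 7049, 7868, 8159.8 and 7635 CPM in soleus (log2 change 0.96 ± 0.09 SE, adjusted p = 4.50e-09). Tnnc2, with the overlap above, was listed at 10.04 to 11.4 CPM in gastrocnemius and 2.29 to 3.23 CPM in soleus (log2 change -1.87 ± 0.11 SE, adjusted p = 4.36e-12).

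**Figure D1:**
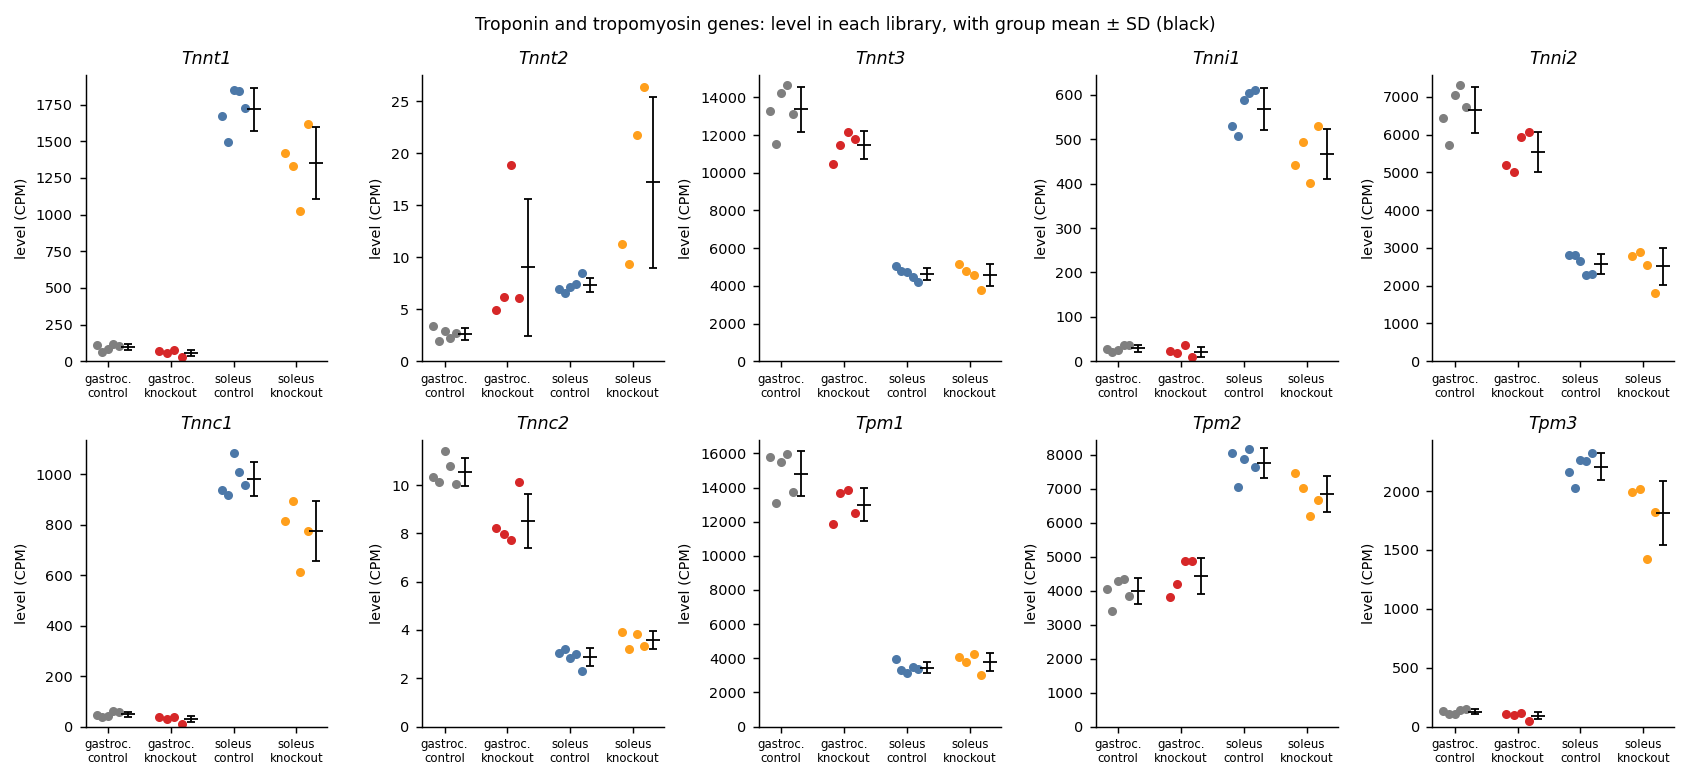
Level of each of the 10 genes in every library, in CPM on linear axes from 0, for the 4 groups of muscle and genotype, with 1 point per library and the group mean and SD in black. Tnnt1, Tnni1, Tnnc1 and Tpm3 lie far higher in all soleus libraries, Tnnt3, Tnni2 and Tpm1 lie lower there, and control and knockout points of a muscle overlap except for Tnnt2 in both muscles and Tnnc1 and Tpm3 in soleus.

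Levels of different genes were compared per kilobase of exon, in CPM per kilobase. The order depends on this correction, which uses the length of all annotated exons. In CPM without it, mean Tpm1 (14811) exceeded Tnnt3 (13367) in the gastrocnemius controls, and Tpm2 (7752) exceeded Tnnt3 (4647) in the soleus controls. In the gastrocnemius controls the order was Tnnt3 (9609.9 ± 871), Tnni2 (4444 ± 412), Tpm1 (2284 ± 205) and Tpm2 (1368 ± 133, all SD, n = 5), and these 4 did not overlap. Far below came Tnnc1 (46.4 ± 10.1), Tnnt1 (43.7 ± 9.40), Tpm3 (20.8 ± 3.19) and Tnni1 (8.12 ± 2.12), of which Tnnc1 and Tnnt1 overlapped. Tnnt2 was lowest at 0.341 ± 0.0737. In the soleus controls Tnnt3 (3341 ± 228) still led, followed by Tpm2 (2665 ± 151), Tnni2 (1721 ± 178), Tnnc1 (943 ± 63.3), Tnnt1 (779 ± 66.4) and Tpm1 (532 ± 46.9), with Tpm3 at 363 ± 18.7, Tnni1 at 158 ± 13.1 and Tnnt2 at 0.943 ± 0.0904 (all SD, n = 5), and no neighbours in this order overlapped.

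The slow form as a share of its class was computed per kilobase in each library, as a description with no test. Tnnt1 made up 0.450 ± 0.0758% (SD, n = 5) of troponin T in the gastrocnemius controls and 19.0 ± 1.93% (SD, n = 5) in the soleus controls. Tnni1 made up 0.181 ± 0.0370% (SD, n = 5) of troponin I in gastrocnemius and 8.50 ± 1.42% (SD, n = 5) in soleus. Tpm3 made up 0.567 ± 0.0911% (SD, n = 5) of tropomyosin in gastrocnemius and 10.2 ± 0.486% (SD, n = 5) in soleus. By this measure most troponin T and I mRNA of the soleus was of the fast form. Since exon length is that of all annotated exons, and not of the transcript in use, the shares depend on it, and without the length correction the soleus control shares were 27.0% for troponin T, 18.2% for troponin I and 16.5% for tropomyosin.

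In the gastrocnemius knockouts the slow share was 0.318 ± 0.109% for troponin T, 0.162 ± 0.0776% for troponin I and 0.434 ± 0.142% for tropomyosin (all SD, n = 4). In the soleus knockouts it was 15.8 ± 3.82%, 7.45 ± 2.26% and 9.20 ± 1.01% (all SD, n = 4). By library the soleus knockouts held 14.9, 14.9, 12.4 and 21.3% slow troponin T, against 17.3, 16.4, 19.8, 20.6 and 20.6% in the controls. Library 42 was the highest of the knockouts and above all controls, and the other 3 were below all controls. For troponin I the soleus knockouts held 6.20, 6.64, 6.13 and 10.8%, against 7.25, 6.96, 8.45, 9.93 and 9.94% in the controls, with library 42 again apart from the other 3. Library 42 was also the knockout library with little Myh4 (223 CPM). Control library 37 had less Myh4 still (127 CPM). Its shares of 19.8% for troponin T and 8.45% for troponin I lay among those of the other controls. These libraries differed in Myh1, another fast type, at 2828 CPM in library 42 and 6255 CPM in library 37. The summed fast fibre markers were at 28674 CPM in library 42 and 30251 CPM in library 37. The relation of these values to the slow shares was not tested.

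**Figure D2:**
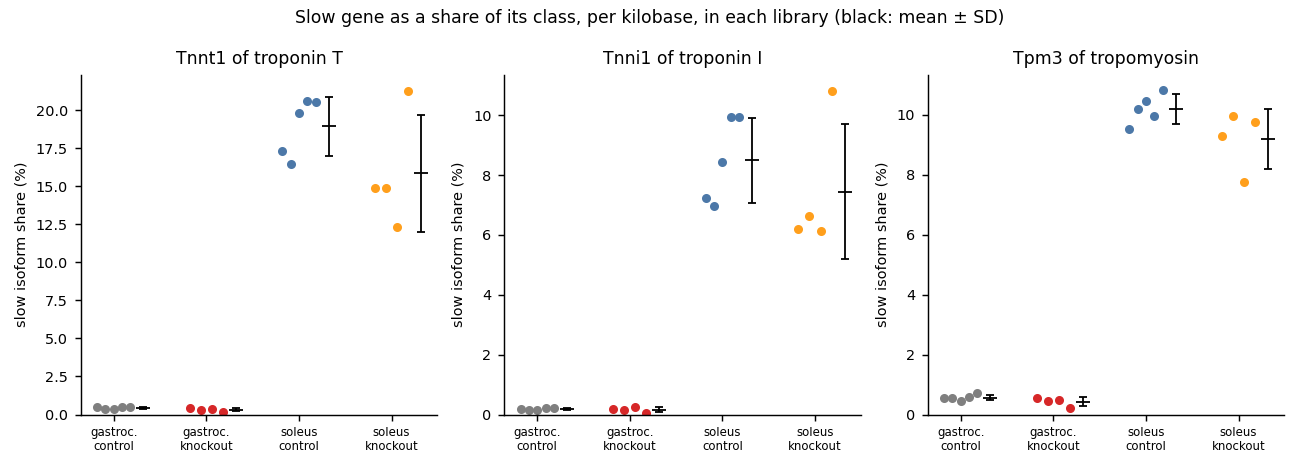
Slow gene as a percentage of its class per kilobase of exon, in each library of the 4 groups, for troponin T, troponin I and tropomyosin. Points are libraries and the black bar is the mean with its SD; the shares are under 1% in all gastrocnemius libraries and between 6.13% and 21.3% in soleus, where knockout library 42 lies above the other 3 knockouts for both troponins.

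The totals of troponin T and troponin I differed between the muscles in the same proportion, as a description with no test. Summed troponin T was at 9654 ± 877 CPM per kilobase in the gastrocnemius controls and 4121 ± 215 in the soleus controls, and summed troponin I at 4452 ± 413 and 1879 ± 166 (all SD, n = 5). The ratio of troponin T to troponin I was 2.17 ± 0.0478 and 2.20 ± 0.130 (SD, n = 5). In the knockouts the ratio was 2.24 ± 0.164 in gastrocnemius and 2.19 ± 0.244 in soleus (SD, n = 4). Summed tropomyosin was at 3672 ± 333 CPM per kilobase in the gastrocnemius controls and 3560.0 ± 186 in the soleus controls (SD, n = 5), with overlapping ranges. That overlap depends on the length correction, with exon lengths of 6485 bases for Tpm1, 2909 for Tpm2 and 6085 for Tpm3. In CPM without it, the sum was higher in every gastrocnemius control than in any soleus control.

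Within tropomyosin, the main pair changed places between muscles. Tpm1 made up 62.2 ± 0.861% of tropomyosin in the gastrocnemius controls and 14.96 ± 1.07% in the soleus controls, and Tpm2 37.2 ± 0.834% and 74.8 ± 0.858% (all SD, n = 5). These shares of Tpm1 and Tpm2 were formed after the values were seen and have no test. In the gastrocnemius knockouts the Tpm1 share was 57.9, 59.2, 55.9 and 53.4% by library, below all 5 controls at 63.2, 63.0, 61.7, 61.9 and 61.2%. In the soleus knockouts it was 17.8, 17.6, 21.7 and 15.2%, against 16.3, 15.7, 13.5, 14.6 and 14.8% in the controls, with overlap.

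**Figure D3:**
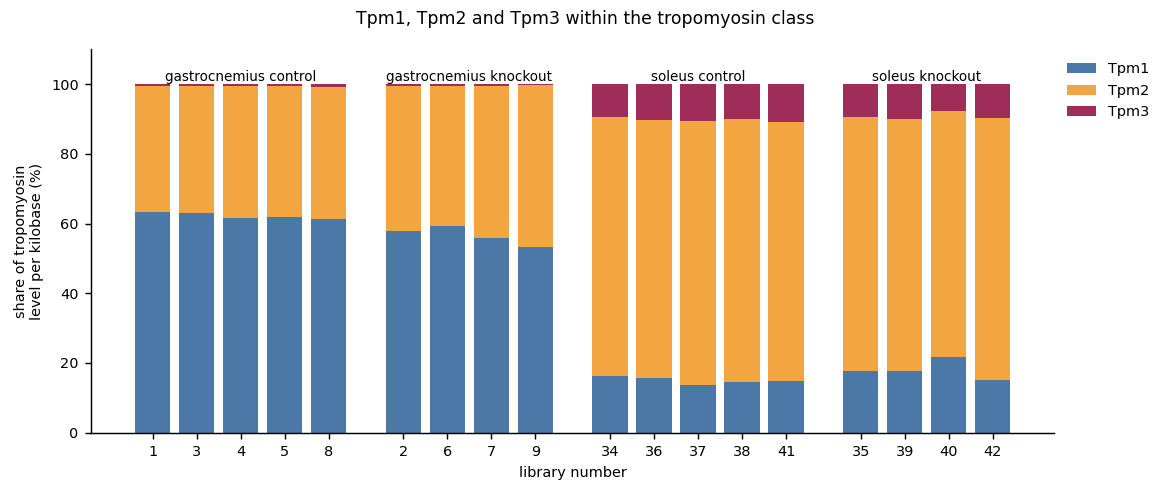
Shares of Tpm1, Tpm2 and Tpm3 in summed tropomyosin, in percent per kilobase of exon, for every library of the 4 groups. Tpm1 is the larger part in all gastrocnemius libraries (53.4% to 63.2%), and Tpm2 in all soleus libraries (70.5% to 76.0%).

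The same comparison of muscles in the knockouts gave differences for 9 of 10 genes, where 37.8% of 18494 genes differed, with 5 higher in soleus (19.2% of all genes) and 4 lower (18.5%). The muscles did not overlap for 9 of the 10, against 32.4% of all genes. Log2 fold changes were 4.55 for Tnnt1, 4.44 for Tnni1, 4.76 for Tnnc1 and 4.29 for Tpm3, with SE from 0.21 to 0.33 and adjusted p from 4.05e-11 to 4.80e-08. For the fast set they were -1.33 for Tnnt3, -1.15 for Tnni2 and -1.78 for Tpm1. Tpm2 was at 0.62, against 0.96 in the controls, and Tnnc2 was 2.39 times lower in soleus (-1.26), against 3.66 times (-1.87) in the controls. Tnnt2 was the gene that did not pass in the knockouts (log2 change 0.93 ± 0.39 SE, adjusted p = 0.0739), and it passed with limma voom (adjusted p = 0.0376), with library totals in edgeR (0.0314), and without gastrocnemius knockout library 7 (log2 fold change 1.58, adjusted p = 0.00071) or soleus knockout library 39 (adjusted p = 0.0358). DESeq2 called 9 of the 10 genes, against 7469 of all 18494 genes tested, and limma voom 10, against 7165 of 18494.

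In the gastrocnemius, the knockout comparison called 0 of the 10 genes with edgeR, where 3.78% of 16393 genes tested were called. At an unadjusted p under 0.05 the count was 6 of 10, against 18.6% of all genes. These were Tnnt1, Tnnt2, Tnnt3, Tnni2, Tpm1 and Tnnc2, the last with the Ube2c overlap noted above. DESeq2 called 2 (Tnnt2 higher, adjusted p = 0.00229, and Tnni2 lower, adjusted p = 0.0489), against 7.53% of all genes, and limma voom 0, against 3.51%. The groups did not overlap for 1 of 10, against 8.41% of all genes; this was Tnnt2, which was higher, as were 3.79% of all genes. The median log2 fold change was -0.283 over the 10 genes and 0.019 over all genes, and 8 of the 10 values were below 0.

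Among the slow genes, the gastrocnemius knockouts held 67.6, 58.5, 73.8 and 30.8 CPM of Tnnt1 (log2 change -0.74 ± 0.27 SE, adjusted p = 0.194). They held 22.5, 18.2, 36.0 and 9.42 CPM of Tnni1 (log2 change -0.45 ± 0.38 SE, adjusted p = 0.604), 37.0, 29.9, 36.2 and 11.0 CPM of Tnnc1 (log2 change -0.76 ± 0.35 SE, adjusted p = 0.307) and 108, 102, 111 and 50.7 CPM of Tpm3 (log2 change -0.44 ± 0.23 SE, adjusted p = 0.357). Library 9 was the lowest of the 4 for each of these genes and lay below all controls. Without it the log2 fold changes were -0.53 for Tnnt1, -0.19 for Tnni1, -0.49 for Tnnc1 and -0.24 for Tpm3. Its Myh7 was also lowest, at 107 CPM against 257 to 357 CPM in the other 3 knockouts, and the summed slow fibre markers ran from 361 to 761 CPM in the knockouts, lowest in library 9, against 746 to 1142 CPM in the controls. Of those 6 markers 1 fell by edgeR (Myl2, the slow myosin light chain, log2 fold change -0.95, adjusted p = 0.0113). Over all genes edgeR called 3.78%. With edgeR 5 of the markers had an unadjusted p under 0.05 (18.6% of all genes), DESeq2 called 4 (7.53%) and limma voom 1 (3.51%). The list's median log2 fold change was -0.656. The part of slow fibre content in these values was not tested.

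Among the fast genes, the knockouts held 10460.3, 11496, 12164 and 11806 CPM of Tnnt3 (log2 change -0.22 ± 0.08 SE, adjusted p = 0.144) and 5189, 5011, 5925 and 6077 CPM of Tnni2 (log2 change -0.26 ± 0.09 SE, adjusted p = 0.108). Both ranges overlapped the controls only through control library 3. Without that library Tnni2 passed the test (log2 fold change -0.31, adjusted p = 0.0475), and it also passed with no filter on low counts (adjusted p = 0.0358). Tpm1 was at 11877, 13702, 13884 and 12516 CPM (log2 change -0.19 ± 0.08 SE, adjusted p = 0.218) and Tpm2 at 3819, 4181, 4866 and 4881 CPM (log2 change 0.16 ± 0.09 SE, adjusted p = 0.387). Tpm2 in knockout libraries 7 and 9 was above all controls, and libraries 2 and 6 were within them. Tnnc2 was listed at 8.21, 7.98, 7.71 and 10.1 CPM (log2 change -0.30 ± 0.10 SE, adjusted p = 0.116).

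In the soleus, edgeR called 0 of the 10 genes, where 0.0553% of 18087 genes tested were called. At an unadjusted p under 0.05 the count was 6 of 10, against 8.19% of all genes. These were Tnnt2, Tnnt1, Tnni1, Tnnc1, Tpm3 and Tnnc2, the last with the Ube2c overlap noted above. Tnnt1, Tnni1, Tnnc1 and Tpm3 varied together among the libraries of a group (Pearson r from 0.872 to 0.976), so they are not independent results. DESeq2 called 1 (Tnnt2 higher, adjusted p = 0.000567), against 0.918% of all genes, and limma voom 0, against 0.0553%. The groups did not overlap for 3 of 10, against 2.55% of all genes: Tnnt2 was higher (1.31% of all genes), and Tnnc1 and Tpm3 were lower (1.24%). The median log2 fold change was -0.104 over the 10 genes and 0.0 over all genes, and 7 of the 10 values were below 0.

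The 4 slow genes had values below 0 in the soleus too. Tnnc1 was at 815, 892, 611 and 776 CPM in the knockouts (log2 change -0.34 ± 0.10 SE, adjusted p = 0.387), with the highest knockout below the lowest control. Tpm3 was at 1992, 2016, 1425 and 1821 CPM (log2 change -0.28 ± 0.10 SE, adjusted p = 0.482), with the groups separated by little, since knockout library 39 lay just under control library 36. Tnnt1 was at 1423, 1333, 1026 and 1617 CPM (log2 change -0.34 ± 0.12 SE, adjusted p = 0.458) and Tnni1 at 442, 494, 401 and 530.1 CPM (log2 change -0.28 ± 0.09 SE, adjusted p = 0.457), both with library 42 inside the control range. Library 40 was the lowest knockout for all 4 slow genes, and it had the lowest sum of slow fibre markers (10025 to 15086 CPM over the knockouts, 15439 to 19549 CPM over the controls). Of the 6 slow markers edgeR called 0 in soleus, against 0.0553% of all genes. An unadjusted p under 0.05 occurred for 4 (8.19% of all genes), and DESeq2 called 2 (0.918%) and limma voom 0 (0.0553%). The part of slow fibre content in the slow genes was not tested.

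In the soleus the fast genes Tnnt3 and Tnni2 had mean levels close to those of the controls. Tnnt3 was at 5139, 4815, 4591 and 3768 CPM (log2 change -0.02 ± 0.10 SE, adjusted p = 0.981) and Tnni2 at 2783, 2886, 2552 and 1816 CPM (log2 change -0.03 ± 0.13 SE, adjusted p = 0.968). Library 42 was the lowest for both and below all controls, and without it the log2 fold changes turned to 0.06 for Tnnt3 and 0.09 for Tnni2. Tpm1 was at 4066, 3793, 4255 and 3022 CPM (log2 change 0.14 ± 0.10 SE, adjusted p = 0.788), again lowest in library 42. Tpm2 was at 7468, 7004, 6204 and 6677 CPM (log2 change -0.17 ± 0.08 SE, adjusted p = 0.615). Tnnc2 was listed at 3.93, 3.20, 3.83 and 3.32 CPM (log2 change 0.32 ± 0.14 SE, adjusted p = 0.592).

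The difference of the knockout effects between muscles was tested in 1 fit over all 18 libraries, and 0 of the 10 genes were called by edgeR, where 0.0703% of 18494 genes were. At an unadjusted p under 0.05 there were 3 (Tnnc2, Tpm2 and Tpm1), against 5.4% of all genes. DESeq2 called 1, Tnnc2 (adjusted p = 0.0389), against 0.281% of all genes, and limma voom 0, against 0.0595%. Tnnc2 had the largest difference in relation to its error (log2 change 0.61 ± 0.16 SE, adjusted p = 0.312), with the overlap with Ube2c noted above. The knockout values of Tpm2 were 0.16 in gastrocnemius and -0.17 in soleus, a difference of -0.34 (SE 0.13, adjusted p = 0.761), and the difference for Tpm1 had the opposite sign (0.32, SE 0.14, adjusted p = 0.863).

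**Figure D4:**
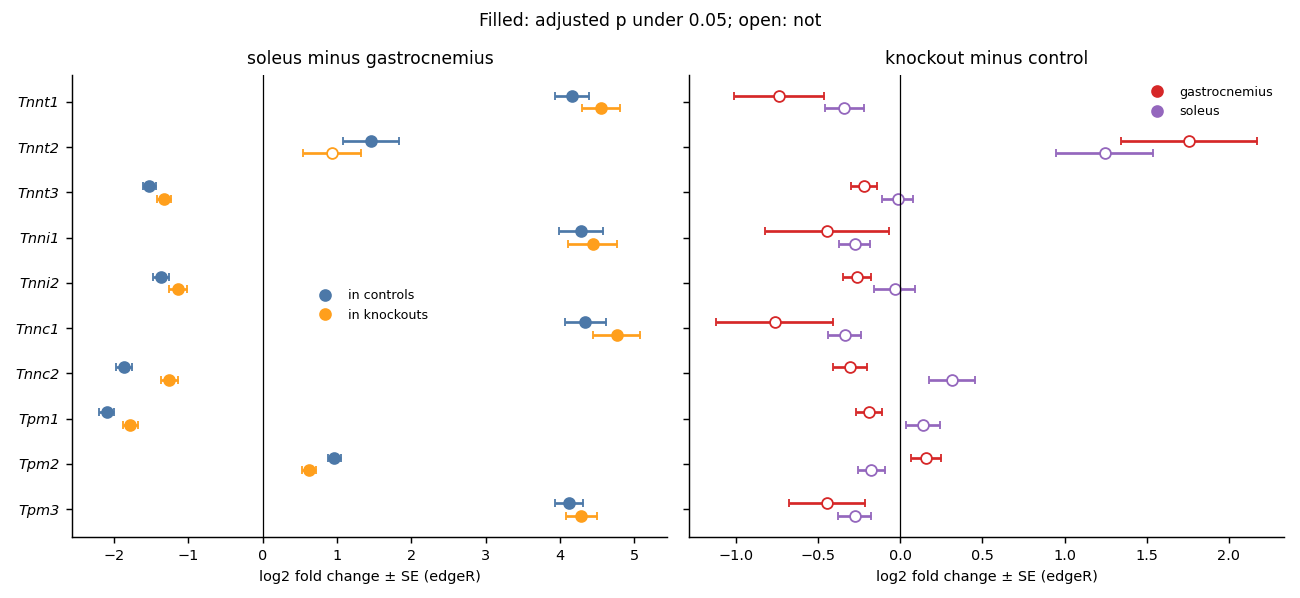
Log2 fold changes with SE from edgeR for the 10 genes, between the muscles (left) and between genotypes (right), filled where the adjusted p is under 0.05. All points between muscles are filled except Tnnt2 in the knockouts, all points between genotypes are open, and the largest of these is Tnnt2 at 1.76 in gastrocnemius.

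Tnnt2, the heart's troponin T, had the largest fold change of the 10 genes in both knockout comparisons, from the lowest level per length. It was at 3.40, 1.93, 2.89, 2.26 and 2.76 CPM in the gastrocnemius controls and 4.97, 6.19, 18.9 and 6.08 CPM in the knockouts. Each knockout library was above every control, and library 7 was about 3 times the others (log2 change 1.76 ± 0.41 SE, adjusted p = 0.0573). Leaving out 1 library changed the call: without library 7 the log2 fold change was 1.12 (adjusted p = 0.00422), without library 2 it was 1.96 (adjusted p = 0.0315), and over the 9 cases of leaving out 1 library the adjusted p ran from 0.00422 to 0.146. In a fit of all 18 libraries the adjusted p was 0.0247.

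In the soleus Tnnt2 was at 6.96, 6.59, 7.17, 7.39 and 8.45 CPM in the controls and 11.3, 9.35, 21.8 and 26.3 CPM in the knockouts. All 4 knockouts were again above all 5 controls, and libraries 40 and 42 were far above the other 2 (log2 change 1.24 ± 0.30 SE, adjusted p = 0.293). Without libraries 40 and 42, a choice made after the values were seen, the log2 fold change was 0.49 (adjusted p = 0.57). Between muscles in the controls Tnnt2 was 2.75 times higher in soleus (log2 change 1.46 ± 0.38 SE, adjusted p = 0.00491). The difference of its knockout effects between the muscles was -0.52 (SE 0.54, adjusted p = 1.000), and 0.16 without gastrocnemius knockout library 7.

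Myh3 and 3 other genes that mark immature or regenerating fibres varied with Tnnt2 from library to library. Myh3, embryonic myosin, was at 19.5, 23.2, 69.8 and 24.6 CPM in the gastrocnemius knockouts, highest in library 7, and at 29.6, 22.2, 89.2 and 258 CPM in the soleus knockouts, highest in libraries 40 and 42. The controls lay from 13.7 to 19.6 CPM in gastrocnemius and from 30.2 to 41.4 CPM in soleus. Over the 18 libraries, after the mean of each group was taken off, Tnnt2 had a Pearson r of 0.861 with Myh3, 0.821 with Myl4 (embryonic light chain), 0.778 with Ncam1 and 0.738 with Myog, and of 0.374 with Myh8 and 0.141 with Actc1. These are descriptions over libraries that differ in fibre makeup and of which some may share a mouse, and knockout libraries 7, 40 and 42 were the highest of their groups in both Tnnt2 and Myh3. In gastrocnemius the 7 immature fibre markers summed to 429 to 649 CPM in the controls and 960.3 to 1529 CPM in the knockouts. Most of that rise came from Actc1, at 149.9 ± 83.2 CPM (SD, n = 5) in the controls and 867 ± 212 CPM (SD, n = 4) in the knockouts. Myh8 was at 357 ± 51.3 and 370 ± 49.6 CPM in the same groups. The sum was highest in library 6 (1529 CPM, against 1502 CPM in library 7). In soleus the sum was 106 to 124 CPM in the controls and 108 to 418 CPM in the knockouts. Of the 7 markers, edgeR called 2 higher in gastrocnemius (Actc1 and Chrng, the fetal acetylcholine receptor subunit, log2 fold change 2.01, adjusted p = 0.00601). There edgeR called 3.78% of all genes. An unadjusted p under 0.05 occurred for 6 of the markers (18.6% of all genes), and DESeq2 called 3 (7.53%) and limma voom 2 (3.51%). In soleus edgeR called 0 (0.0553% of all genes), 2 had an unadjusted p under 0.05 (8.19%), DESeq2 called 1 (0.918%) and limma voom 0 (0.0553%).

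**Figure D5:**
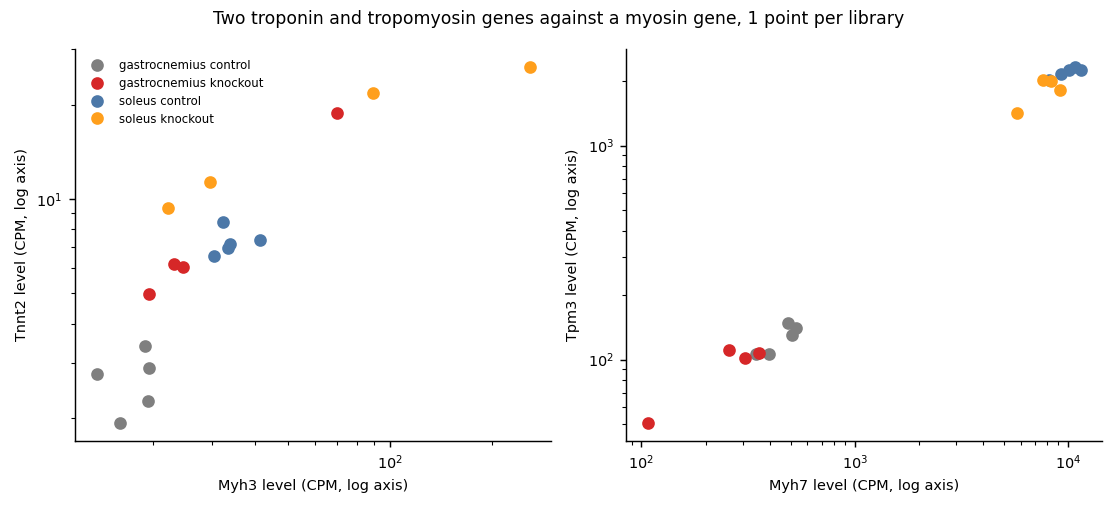
Levels in CPM on log axes, with 1 point per library coloured by the 4 groups: Tnnt2 against the embryonic myosin Myh3 (left) and Tpm3 against the slow myosin Myh7 (right). Gastrocnemius knockout library 7 and soleus knockout libraries 40 and 42 are the highest knockout points of their muscles for both Tnnt2 and Myh3, and Tpm3 and Myh7 are both lowest in gastrocnemius knockout library 9.

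Markers of heart muscle and of other cells were measured beside Tnnt2. Tnni3, the heart's troponin I, was at 0.0706 to 0.296 CPM in the gastrocnemius knockouts and 0.182 to 0.545 CPM in the soleus knockouts. Myl7, an atrial light chain, was at 0 in all gastrocnemius knockout and soleus control libraries. The 6 heart muscle markers summed to 11.0 to 13.6 CPM in the gastrocnemius controls and 6.78 to 12.3 CPM in the knockouts, and to 118 to 163 CPM and 75.8 to 128 CPM in the soleus. Fibroblast markers (5 genes) ran from 1819 to 3045 CPM in the gastrocnemius controls and 2453 to 4052 CPM in the knockouts, highest in library 7, and from 967 to 1517 CPM and 1042 to 2295 CPM in the soleus, highest in library 40. Macrophage markers (4 genes) ran from 38.5 to 56.0 CPM, 52.9 to 99.2 CPM, 28.3 to 40.6 CPM and 34.3 to 57.2 CPM in the same order, and satellite cell markers (4 genes) from 7.73 to 9.67 CPM, 9.46 to 19.5 CPM, 8.59 to 11.8 CPM and 7.04 to 16.0 CPM, each highest among knockouts in libraries 7 and 40. Pax7, the satellite cell factor, rose in the gastrocnemius knockouts (log2 fold change 0.85, adjusted p = 0.0219). Of the heart muscle, fibroblast and macrophage markers edgeR called 0 in either muscle's knockouts. In gastrocnemius and soleus, respectively, the heart list had 1 and 2 genes of 3 tested at an unadjusted p under 0.05, the fibroblast list 3 and 1 of 5, and the macrophage list 4 and 2 of 4; DESeq2 called 1 fibroblast and 2 macrophage genes, all in gastrocnemius, and limma voom 0. The satellite cell list had 1 edgeR call in gastrocnemius (Pax7), where 4 of 4 had an unadjusted p under 0.05, DESeq2 called 2 and limma voom 1. In soleus edgeR, DESeq2 and limma voom called 0 of that list, and 0 had an unadjusted p under 0.05. EdgeR called 0 of the 9 fast fibre markers in either muscle (2 in each at an unadjusted p under 0.05, with 1 called by DESeq2 in each and 1 by limma voom in gastrocnemius). For markers of smooth muscle (6 genes), endothelium (4), tendon (3), adipocytes (3), Schwann cells (3) and red blood cells (3), edgeR, DESeq2 and limma voom called 0 in both muscles. An unadjusted p under 0.05 occurred there for 1 endothelial gene in gastrocnemius and for 1 tendon, 1 Schwann cell and 1 red blood cell gene in soleus. Over all genes, an unadjusted p under 0.05 occurred for 18.6% in gastrocnemius and 8.19% in soleus. In the same order edgeR called 3.78% and 0.0553% of all genes, DESeq2 7.53% and 0.918%, and limma voom 3.51% and 0.0553%. The part of other cells in the Tnnt2 values was not tested.

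The genes most like each member in their scatter among libraries were ranked by Pearson r of log2 CPM after each group's mean was taken off, over 18 libraries and 13078 genes. The slow genes were nearest each other: Tnnc1 and Tpm3 had r = 0.976, Tnnt1 was nearest Tnnc1 (0.914), Myh7 (0.913) and Tpm3 (0.913), and Tnni1 nearest Tnnt1 (0.902), Tnnc1 (0.897) and Tpm3 (0.872). Tpm3 was also close to Myh7 (0.916). Among the knockouts, library 9 in gastrocnemius and library 40 in soleus were lowest for each of Tnnt1, Tnni1, Tnnc1 and Tpm3. The weight of these libraries in the r values was not tested. Among the fast genes, Tnnt3 was nearest Tnni2 (0.907), its neighbour on chromosome 7, then Rtn2 (0.891) and Oxnad1 (0.887). Tnni2 was nearest Ndufb9 (0.918), Fmc1 (0.912) and Mrpl52 (0.908). Tpm1 was nearest Atp2a1, the fast calcium pump of the sarcoplasmic reticulum (0.899), Tmem109 (0.898) and Ank1 (0.887). Tpm2 was nearest Cog7 (0.908), Ndrg2 (0.899) and Bin1 (0.863), and Tnnc2 was nearest Rabl2 (0.804), Smad7 (0.78) and Apoo-ps (0.755). Tnnt2 was nearest Mmp14, a membrane protease of the matrix (0.925), Hist1h2ak, a histone (0.924), and Chrnb1, the muscle acetylcholine receptor beta subunit (0.92). The slow genes Tnnt1, Tnni1, Tnnc1 and Tpm3 were nearly unrelated to the fast genes Tnnt3, Tnni2 and Tpm1. Their r ran from -0.16 (Tnnt1 and Tnni2) to 0.069 (Tnni1 and Tpm1). Tnnc2, with its overlap with Ube2c, ran opposite to the same slow genes, with r from -0.521 (Tnnt1) to -0.642 (Tpm3).

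Other genes of the thin filament were counted from a list of 24 (actins, nebulin, tropomodulins, leiomodins, capping proteins and their partners). In the gastrocnemius knockouts 1 rose and 1 fell, where 3.78% of all genes were called. Actc1, the fetal and cardiac alpha actin, went from 149.9 ± 83.2 CPM (SD, n = 5) to 867 ± 212 CPM (SD, n = 4; log2 fold change 2.53, adjusted p = 0.0218), and Capza2, a capping protein subunit, fell by 0.29 on the log2 scale (adjusted p = 0.0386). The list's median was 0.007, against 0.019 over all genes. In the soleus knockouts 0 of 24 were called by edgeR, DESeq2 or limma voom. At an unadjusted p under 0.05 there was 1, against 8.19% of all genes. Between the muscles in controls 8 were higher (33.3%, against 27.4% of all genes) and 9 lower (37.5%, against 21.9%) in soleus, with a median of -0.076 against 0.084, and the called genes with the largest folds were Actc1 (log2 fold change -3.77), Lmod2, a leiomodin of the thin filament's pointed end (2.17), Tmod1, a tropomodulin (-1.80), and Nebl, nebulette (1.52).

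Of 20 regulators of fibre type, 1 rose in the gastrocnemius knockouts (Myod1, the myogenic factor, log2 fold change 0.64, adjusted p = 0.0105) and 0 fell, a share of 5.0% against the 3.78% of all genes, with a list median of -0.015. For the soleus knockouts edgeR, DESeq2 and limma voom called 0, and 1 had an unadjusted p under 0.05, against 8.19% of all genes. Between the muscles in controls 6 were higher (30%, against 27.4% of all genes) and 9 lower (45.0%, against 21.9%) in soleus, among them Prox1, a factor of slow fibres (2.94), Eya4, a cofactor of homeobox factors (-2.44), Vgll2, a TEAD cofactor (1.60), and Sox6, a repressor of slow genes (-1.41). Of 12 splicing factors 11 were tested. In the gastrocnemius knockouts Rbfox2 rose (log2 fold change 0.33, adjusted p = 0.0219), and Rbfox1 (-0.32, adjusted p = 0.0192) and Mbnl1 (-0.25, adjusted p = 0.0479) fell, 27.3% of the 11 against 3.78% of all genes, with a list median of -0.098. Among them edgeR and limma voom called 0 and DESeq2 1 in the soleus knockouts, where DESeq2 called 0.918% of all genes. At an unadjusted p under 0.05 there was 1, against 8.19% of all genes. Between the muscles in controls 3 were higher (27.3%, against 27.4% of all genes) and 5 lower (45.5%, against 21.9%), led by Rbfox1 (-1.58), Celf2 (-1.04), Mbnl1 (-1.01) and Rbm4 (0.92). Troponin T and tropomyosin transcripts are spliced by factors of this kind, and gene counts do not show which exons were used.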

How the data were processed

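Total RNA from 18 snap-frozen muscles was depleted of ribosomal RNA and sequenced, per the labels' protocols. The authors' tools, per the submitters' processing notes, were STAR 2.5.1a, featureCounts 1.4.6-p5, Subread and bcl2fastq, with build GRCm38. Strand setting, annotation release and handling of reads with several matches were not given in the sources used here. Raw counts per gene were deposited by the authors for each library. The deposited CPM values matched the counts over each library total (largest deviation 4.9e-10), as did the RPKM per kilobase (4.7e-10), so only the counts were used. Symbols from GENCODE release M21 matched 40254 of 41388 gene IDs (97.3%). edgeR 4.0.16 under R 4.3.3 was run on the counts with TMM scaling. Its filterByExpr kept genes by a count of 10 and a total of 15, and the robust quasi-likelihood F-test was adjusted by Benjamini-Hochberg over all genes tested (threshold 0.05). Each knockout comparison used the 9 libraries of its muscle, and the others all 18 in 4 groups without covariates. Alternatives were other scaling, no filter, DESeq2 1.42.0, limma 3.58.1 voom, no mitochondrially encoded genes, other sets of libraries in the fit, libraries paired by title number and leaving out each library. Chi-square per gene between libraries of a group was 19.59 to 140.26, well above sampling noise, and none was merged. The mitochondrial genome's share of counts was 7.4% to 8.87% in gastrocnemius and 9.43% to 12.66% in soleus. Scripts were tested on simulated data.

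The 10 genes and all gene lists were chosen with earlier results of these data known. All 10 were named, with the 3 genes most like each (mean CPM of at least 1, log2 of CPM plus 0.5), and called genes of the other lists (at most 6 per list and knockout comparison, by p; at most 4 between muscles, by fold). A slow share of troponin C was planned and left out because of the overlap of Tnnc2 with Ube2c. Marker lists covered slow, fast and immature fibres, smooth and heart muscle, fibroblasts, endothelium, macrophages, satellite cells, tendon, adipocytes, Schwann cells and red blood cells.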

Additional observations from a re-analysis of the deposited data

Results flagged for a closer look

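In 52 groups of 4 or 5 libraries (levels of the 10 genes and slow shares), 3 had a highest or lowest library far from the others, and about 1 in 20 is set apart by chance. Tnnt2 in gastrocnemius knockout library 7 was at 18.9 CPM, against 4.97 to 6.19 CPM in the other 3. Tpm3 in gastrocnemius knockout library 9 was at 50.7 CPM, against 102 to 111 CPM. The slow share of troponin I in soleus knockout library 42 was 10.8%, against 6.13% to 6.64%.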

How the results depend on the processing

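The labels pair no libraries, but the genotypes run in the same order over title numbers 1 to 9 and 34 to 42. Across genes, the deviations of libraries 33 numbers apart from their group means had r from 0.09 to 0.514 (over 0.1 in 8 of 9 pairs), and 9 of 9 gastrocnemius and 8 of 9 soleus libraries correlated best with their own number, a hint from the data and not the design. With these numbers as a replicate block, chosen after seeing the data, all genes called numbered 9545 between the muscles in controls (9122 without it), 7522 in knockouts (6987) and 32 in the difference of effects (13). Tnnt2 between the muscles in knockouts then passed (log2 fold change 1.01, adjusted p = 0.0161), and the calls of the other 9 genes did not change.

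Over the alternatives, 1076 fold changes of single genes kept their direction and side of the threshold, 14 came to pass it and 10 changed sign. For the soleus knockouts, Tnnt3 went to 0.002 with library totals, 0.0111 without control 34, 0.0628 without knockout 42 and 0.0942 without knockouts 40 and 42, and Tnni2 to 0.0038 without control 36, 0.0906 without knockout 42 and 0.133 without both. With 1 library left out Tnnt3 ran from -0.0664 to 0.0628 and Tnni2 from -0.104 to 0.0906. In the difference of knockout effects, Tnnt2 ran from -0.809 (without soleus knockout 42) to 0.159 (without gastrocnemius knockout 7), Tnni1 from -0.0906 to 0.568 and Tpm3 from -0.0435 to 0.299, the latter pair lowest without gastrocnemius knockout 9. The cause was not tested.

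In the gastrocnemius knockouts, 1 of the 10 genes was higher with DESeq2 and in the fit of all 18 libraries, and 1 lower with DESeq2 and with no filter; leaving out 1 library gave 0 to 1 higher and 0 to 1 lower. All genes called there numbered 619, 1235 with DESeq2 and 206 to 1080 with 1 library left out. Of the soleus values 1 was higher with DESeq2, and all genes called numbered 10, 48 with no filter, 166 with DESeq2, 28 in the fit of all 18, 5 without knockouts 40 and 42 and 3 to 66 with 1 library left out. For the difference of effects 1 was higher with DESeq2, and all genes called numbered 13, 52 with DESeq2 and 2 to 23 with 1 library left out. Between the muscles, library totals moved the calls from 5074 higher and 4048 lower to 8386 and 2122 in the controls, and from 3560 and 3427 to 6339 and 1751 in the knockouts, and the median of all genes from 0.084 to 0.347 and from 0.032 to 0.265. The 10 genes kept their directions in both.

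Without length correction, in the order gastrocnemius control and knockout, then soleus control and knockout, the slow share was 0.711%, 0.502%, 27.0% and 22.8% for troponin T and 0.434%, 0.388%, 18.2% and 16.1% for troponin I. For tropomyosin it was 0.670% in the gastrocnemius controls, 16.5% in the soleus controls and 14.6% in the soleus knockouts.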
